A study of Homo sapiens with 4 samples.

Results

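The genes described here are 10 extracellular matrix proteases and protease inhibitors, namely the matrix metalloproteinases MMP1, MMP2, MMP3, MMP10 and MMP14, the tissue inhibitors of metalloproteinases TIMP1, TIMP2 and TIMP3, and the related proteases ADAMTS1 and ADAMTS5. They were picked by name, with earlier results of these data known. All 10 were found by gene identifier on primary chromosomes among the 63677 genes of the count files. The cells were IMR90, a strain of primary human lung fibroblasts, in the isolates I90-10 and I90-79. The labels name passage 5 for the isolates, which were then passaged further, and the passage at transfection is not given in the sources used here. Control cells received a non-targeting control siRNA (NTC) and knockdown cells received siRNA against HMGB1, an abundant nuclear protein that binds DNA, in both cases with the transfection reagent RNAiMAX for 72 h. The paper's methods name 2 different siRNAs for the IMR90 transfections and do not say which siRNA each library received. Each isolate gave 1 control and 1 knockdown library of poly(A) RNA, so that each group held 2 libraries. With 2 isolates and a single library for each isolate and treatment, p-values measure the spread between these libraries only.

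Matrix metalloproteinases are zinc enzymes that cut proteins of the extracellular matrix. Most are secreted as inactive proenzymes and become active once the propeptide is removed, which plasmin, furin-like convertases or other matrix metalloproteinases can do. TIMPs block the active enzymes by binding at the catalytic zinc. Fibroblasts are a main source of both kinds of protein, and collagenase and the stromelysins are known as secreted proteins of stressed and senescent fibroblasts.

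The 5 matrix metalloproteinases are related at the site that holds the zinc. The coding sequence of that site is shown to compare the 5 genes there. Such a short stretch does not tell how well reads can be told apart between genes. For that, the pieces shared over whole transcripts are given below. Each sequence is 30 bases of the coding strand, 5′ to 3′, read from GRCh37. The capitals mark the codons of the first zinc-binding histidine, of the catalytic glutamate after it and of the next histidine.
MMP1: CATGAActcggcCATtctcttggactctcc
MMP3: CATGAAattggcCACtccctgggtctcttt
MMP10: CATGAActtggcCACtccctggggctcttt
MMP2: CACGAGtttggcCACgccatggggctggag
MMP14: CACGAGctgggcCATgccctggggctcgag
These are chr11:102666283-102666312 (minus strand, exon 5) in MMP1, chr11:102711269-102711298 (minus strand, exon 5) in MMP3 and chr11:102647452-102647481 (minus strand, exon 5) in MMP10. The stretch of MMP2 is chr16:55525739-55525768 (plus strand, exon 8) and that of MMP14 is chr14:23312492-23312521 (plus strand, exon 5). MMP3 and MMP10, the stromelysins, share 28 of the 30 bases, and MMP2 and MMP14 share 25. MMP1 shares 22 with MMP3 and 23 with MMP10, while the least alike pair, MMP1 and MMP2, shares 16. Over the whole transcripts, 3.18% of the 50-base pieces of MMP3 were also found without a mismatch in MMP10, and 3.36% of those of MMP10 in MMP3. For MMP1, MMP14, TIMP1, TIMP3 and ADAMTS5 no such piece was found in another gene, and for MMP2, TIMP2 and ADAMTS1 at most 2.76% were.

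Positions are given in hg19. MMP10 (chr11:102641234-102651359), MMP1 (chr11:102660651-102668891) and MMP3 (chr11:102706532-102714534) follow each other on the minus strand within 73.3 kb. ADAMTS1 (chr21:28208066-28217728) and ADAMTS5 (chr21:28290231-28338832) are neighbours on the minus strand with 72.5 kb between them. MMP14 (chr14:23305766-23318236), MMP2 (chr16:55423612-55540603), TIMP1 (chrX:47441712-47446188) and TIMP3 (chr22:33197687-33259030) are on the plus strand, and TIMP2 (chr17:76849059-76921469) is on the minus strand. Some exonic bases belong to another gene as well, namely 7.61% in MMP1 and 1.56% in MMP3 (both with WTAPP1), 10% in TIMP2 (with CEP295NL and ENSG00000267601) and 8.93% in TIMP3 (with ENSG00000183531). The strand setting of the counting is not given in the sources used here, so reads of overlapping genes on opposite strands may not have been told apart. WTAPP1 itself had at most 0.801 CPM in a library (read counts per unit of library size, the usual scaling of RNA-seq counts).

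The promoter table from RefSeq (GRCh38.p14) held 4 of the 10 genes, MMP10, MMP14, TIMP1 and TIMP3, each from 250 bases before to 50 bases after the start. The window of MMP10 is shown in part, with the only TATAAA found in the 4 promoters in capitals. It was matched to GRCh37 at chr11:102651373-102651402, on the minus strand, and the motif begins 31 bases before the start.
MMP10: gcattgtctctgTATAAAagaaaggccact
TATAAA, searched on both strands, was present in 11.5% of the 35116 promoters of the table. The AP-1 motif TGAGTCA was present in 0 of the 4 promoters and in 4.95% of all. The ETS motif AGGAAG was found in that of TIMP1 alone, 87 bases before the start, and in 33.6% of all.

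The libraries held from 29861687 to 35317010 counted reads. HMGB1 itself had 181 and 237 CPM in the control libraries of I90-10 and I90-79, and 16 and 18.9 CPM in the knockdown libraries. CPM were computed with library sizes scaled by TMM. The log2-fold change of HMGB1 was −3.59 ± 0.19 (SE), and with an adjusted p of 0.00751 (edgeR's quasi-likelihood test, Benjamini-Hochberg) it passed the thresholds used throughout, which are a log2-fold change beyond 0.6 in size and an adjusted p below 0.01. Without the knockdown library of I90-10 the adjusted p was 0.0487 and without that of I90-79 it was 0.0324, so that HMGB1 then missed the threshold although the log2-fold change was −3.47 and −3.71. All 10 fibroblast markers were above 1 CPM, with sums of 18786 to 34668 CPM, and the sums, most of which came from COL1A1, COL1A2 and COL3A1, were lower in both I90-79 libraries than in both I90-10 libraries. In a fit with the isolate as a block, which compares libraries within an isolate, the fibroblast markers THY1 (−0.99) and PDGFRB (−0.68) were called down and LUM was called up (0.83), and the part of this in the results was not tested. All 8 epithelial and all 7 leukocyte markers stayed at or below 1 CPM in every library. Of the 5 endothelial markers matched, 3 did so, while TEK had 149 and 148 CPM in the control and 131 and 132 CPM in the knockdown and was not called in either fit. The remaining one, VWF, had 1.36 and 0.923 CPM in the control and 4.16 and 2.59 CPM in the knockdown, and it was called up in the fit with the block (log2-fold change 1.55). The part of endothelial markers in the results was not tested.

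Each gene was tested in a fit without a term for the isolate and in a fit with the isolate as a block, which compares each knockdown library with the control library of the same isolate. In the first fit, 0 of the 10 genes passed both thresholds, beside 0.201% of the 15398 genes tested (0.0649% up and 0.136% down). At a looser adjusted p below 0.05, 1 gene was called up, MMP10, and 0 down, beside 3.73% and 4.34% of all genes. In this fit 4 of the 10, all of them higher in the knockdown, had an unadjusted p below 0.05 (13.6% of all genes in that direction, 14.7% in the other). With the block, 5 of the 10 genes rose and 1 fell, beside 6.68% and 7.84% of all genes tested. The 5 were MMP1, MMP3, MMP10, ADAMTS5 and TIMP1, and TIMP3 was the gene that fell. Since the 10 were chosen with earlier results of these data known, such counts are not independent of the data. The same 5 were higher in both knockdown libraries than in either control library, as were 29.8% of all genes, and 0 of the 10 were lower without overlap (30.2% of all). Within both isolates 5 of the 10 were higher in the knockdown and 4 lower, beside 38.9% and 39.4% of all genes. The first fit depended on single libraries, and leaving out 1 library moved the log2-fold change of MMP3 between 1.91 and 6.49, MMP1 between 1.68 and 3.87, and TIMP3 between −1.50 and −0.03. There were 2 genes called up without the control library of I90-10 (MMP10 and ADAMTS5) and 4 without that of I90-79 (MMP1, MMP3, MMP10 and ADAMTS5). The share of all genes called in the fits with a library left out is not given here. In what follows, rose and fell refer to the fit with the block. Each range of adjusted p over the settings has its highest value from a fit with 1 library left out. Its lowest value came from edgeR without a filter on low counts for MMP1, MMP3, MMP10 and ADAMTS5. For the TIMPs it came from DESeq2 with the block. By edgeR's quasi-likelihood test MMP1 had an adjusted p of 8.9e-40 unfiltered and 0.101 filtered. Its log2-fold change was nearly the same, at 2.41 unfiltered and 2.40 filtered. The low end for MMP1 thus came with the filter setting and not with a larger difference. The same held for MMP3, MMP10 and ADAMTS5, so these low ends are not stronger evidence.

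**Figure D1:**
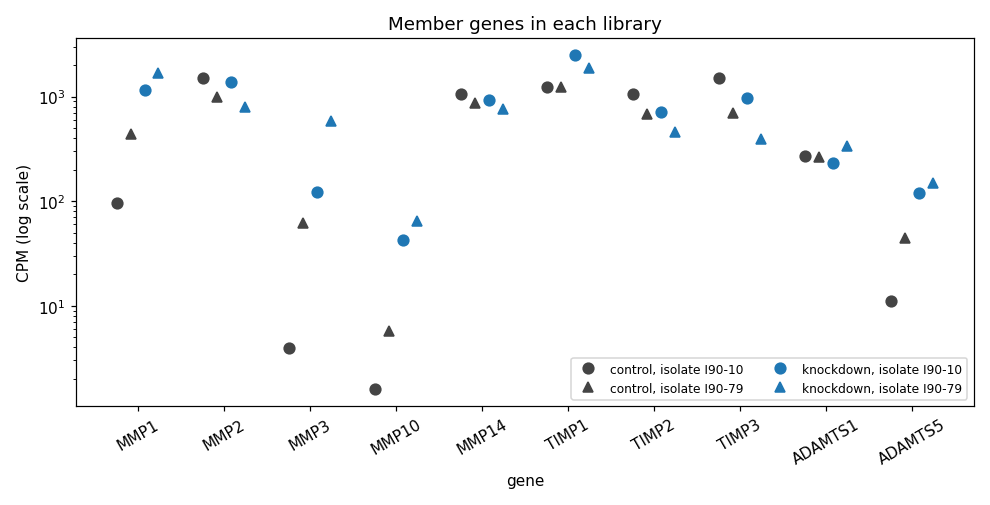
CPM of the 10 genes (log axis) in each of the 4 libraries, control in dark grey and knockdown in blue, with circles for isolate I90-10 and triangles for I90-79. MMP1, MMP3, MMP10, ADAMTS5 and TIMP1 had both knockdown libraries above both control libraries, and the spread of MMP3 between isolates was the widest, from 3.91 to 61.8 CPM in the control.

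MMP1, the interstitial collagenase, which makes the first cut in fibrillar collagen, had 96.5 CPM in the control library of I90-10, 439 in that of I90-79, 1146 in the knockdown library of I90-10 and 1678 in that of I90-79. The lowest knockdown value was above the highest control value, and the control libraries stood 4.55-fold apart while the knockdown libraries stood 1.46-fold apart. The group means were 268 ± 242 and 1412 ± 376 CPM (SD, n = 2). The difference was 11.9-fold within I90-10 and 3.82-fold within I90-79. MMP1 rose with the block by a log2-fold change of 2.75 ± 0.33 (SE) at an adjusted p of 6.7e-04, against 2.40 ± 0.71 at 0.101 without it, and over all 13 settings tried the adjusted p ran from 8.9e-40 to 0.254.

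MMP3, stromelysin 1, cuts proteoglycans, laminin and fibronectin and can activate the collagenase proenzyme. It had 3.91 and 61.8 CPM in the control libraries of I90-10 and I90-79, and 123 and 579 CPM in the knockdown libraries. Again the groups did not overlap, but the isolates differed more than for any other of the 10 genes, by 15.8-fold in the control and 4.69-fold in the knockdown. The means were 32.9 ± 41 and 351 ± 322 CPM (SD, n = 2). Within I90-10 the knockdown was 31.5-fold above the control and within I90-79 it was 9.36-fold above. With the block the log2-fold change was 3.94 ± 0.34 (SE) at an adjusted p of 1.6e-04. Without it the change was 3.41 ± 1.36 at 0.178, and the adjusted p ran from 7.0e-79 to 0.485 over the settings.

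MMP10 is stromelysin 2, the most like MMP3 of the 5 matrix metalloproteinases at the zinc site printed above. It was the least abundant of the 5 matrix metalloproteinases, with 1.6 and 5.73 CPM in the control libraries (47 and 211 reads) and 42.7 and 64.3 CPM in the knockdown libraries (1234 and 2009 reads). The groups were far apart, with means of 3.66 ± 2.92 and 53.5 ± 15.3 CPM (SD, n = 2). The knockdown was 26.7-fold above the control in I90-10 and 11.2-fold in I90-79. Of the 10 genes, MMP10 came nearest to a call without the block, where the log2-fold change was 3.85 ± 0.59 (SE) at an adjusted p of 0.0272. With the block it rose by 3.97 ± 0.25 at 5.2e-05, and the range over the settings was 2.5e-74 to 0.0793.

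Around the 3 genes on chromosome 11, 15 genes were tested within 1000 kb of the start of MMP1, a window chosen after the values were seen. Beside the 3 MMP genes, for which the window was drawn, 2 of the other 12 genes rose with the block, YAP1 and DCUN1D5, and TRPC6 fell. Over all genes tested 6.68% rose and 7.84% fell. MMP8, neutrophil collagenase, on the far side of MMP10, had at most 0.45 CPM and a log2-fold change of −0.09 ± 0.53 (SE).

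**Figure D2:**
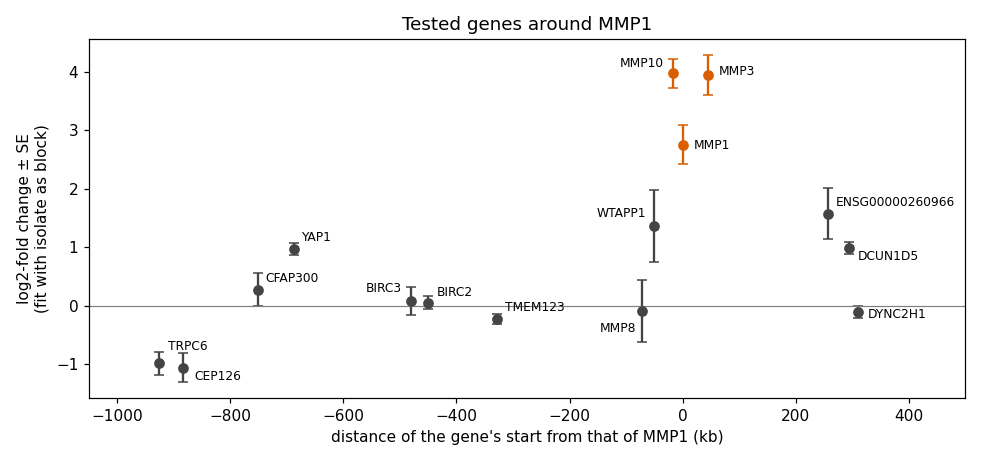
Log2-fold change ± SE in the fit with the isolate as a block, for the 15 genes tested whose start lies within 1000 kb of that of MMP1, against the distance between the starts in kilobases, with MMP10, MMP1 and MMP3 in orange. The 3 MMP genes stood at 3.97, 2.75 and 3.94, and the next highest values were 1.57 for ENSG00000260966 and 1.36 for WTAPP1, neither of which was called.

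MMP2 and MMP14 were not called in either fit. MMP2, gelatinase A, had 1508 and 988 CPM in the control and 1383 and 802 CPM in the knockdown. In both groups the I90-10 library was the higher one, and the log2-fold change of −0.19 ± 0.33 (SE) missed the threshold at an adjusted p of 0.747, or 0.139 with the block. MMP14, the membrane-anchored enzyme that activates the MMP2 proenzyme, had 1062 and 861 CPM in the control and 925 and 763 CPM in the knockdown. Its log2-fold change was −0.19 ± 0.18 at an adjusted p of 0.544, or 0.166 with the block. Both genes had overlapping groups and were slightly lower in the knockdown within each isolate, by −0.12 and −0.30 on the log2 scale for MMP2 and by −0.20 and −0.17 for MMP14.

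Of the 3 inhibitors, TIMP1 rose, TIMP3 fell and TIMP2 was not called. TIMP1, a soluble inhibitor of most secreted matrix metalloproteinases, had 1221 and 1222 CPM in the control and 2519 and 1884 CPM in the knockdown. The control libraries were nearly equal, unlike for MMP1, MMP3 and MMP10, and both knockdown libraries were higher, 2.06-fold in I90-10 and 1.54-fold in I90-79. TIMP1 rose with the block by a log2-fold change of 0.83 ± 0.12 (SE) at an adjusted p of 0.0016. Without it the change was 0.85 ± 0.19 at 0.0597, and the range over the settings was 3.2e-08 to 0.2.

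TIMP3, the inhibitor that stays bound to the matrix and also blocks ADAMTS aggrecanases, went the other way. It had 1500 and 690 CPM in the control and 969 and 389 CPM in the knockdown. The I90-10 knockdown library was thus above the I90-79 control library and the groups overlapped, but within each isolate the knockdown was the lower one, at 0.646 and 0.563 of the control. TIMP3 fell with the block, with a log2-fold change of −0.73 ± 0.10 (SE) at an adjusted p of 0.00129, and had −0.69 ± 0.54 at 0.453 without it. With 1 factor of unwanted variation from RUVs and then DESeq2, the tools the paper names, the change of TIMP3 was only −0.10. Its adjusted p from DESeq2 was then 0.74, so the fall was not seen in that setting. Its adjusted p ran from 1.8e-07 to 0.985 over the settings.

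TIMP2, which binds MMP14 at the cell surface and takes part in the activation of MMP2, had 1060 and 688 CPM in the control and 706 and 459 CPM in the knockdown. The knockdown was at 0.666 of the control in each isolate. The log2-fold change of −0.59 ± 0.09 (SE) with the block had an adjusted p of 0.00252 but was just short of the threshold of 0.6, and without the block it was −0.59 ± 0.30 at 0.264, so TIMP2 was not called in either fit. With RUVs and then DESeq2 the change of TIMP2 was −0.26 at an adjusted p of 0.174. Over the settings its adjusted p was between 2.2e-05 and 0.699.

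Of the neighbours on chromosome 21, ADAMTS5 rose and ADAMTS1 was not called. ADAMTS5, an aggrecanase, had 11.1 and 44 CPM in the control and 120 and 150 CPM in the knockdown. The groups did not overlap, and the isolates were 3.95-fold apart in the control and 1.26-fold in the knockdown, with means of 27.6 ± 23.2 and 135 ± 21.7 CPM (SD, n = 2). The knockdown was 10.8-fold above the control in I90-10 and 3.42-fold in I90-79. ADAMTS5 rose with the block by 2.55 ± 0.33 (SE) on the log2 scale at an adjusted p of 8.7e-04, against 2.29 ± 0.62 at 0.0852 without it and a range of 1.9e-39 to 0.216. ADAMTS1, which cuts versican and aggrecan, had 269 and 263 CPM in the control and 232 and 336 CPM in the knockdown. It was lower in the knockdown of I90-10 and higher in that of I90-79, and its log2-fold change was 0.09 ± 0.20 at an adjusted p of 0.797, or 0.737 with the block.

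**Figure D3:**
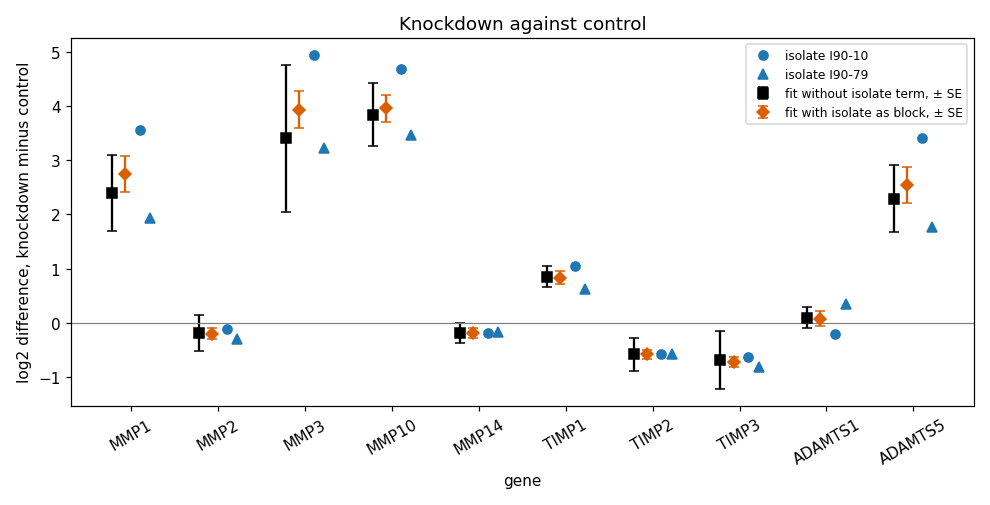
Log2 difference of knockdown minus control for the 10 genes, from the fit without a term for the isolate (black squares) and the fit with the isolate as a block (orange diamonds), both ± SE, and within each isolate (blue circles for I90-10, blue triangles for I90-79). The standard error of MMP3 was 1.36 without the block and 0.34 with it, and the I90-10 difference was the larger one for MMP1, MMP3, MMP10, ADAMTS5 and TIMP1.

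For the 4 proteases that rose, the I90-79 control library was above that of I90-10, and the knockdown difference was the larger one in I90-10. On the log2 scale these differences were 3.57 in I90-10 and 1.94 in I90-79 for MMP1, 4.96 and 3.23 for MMP3, 4.69 and 3.48 for MMP10, and 3.42 and 1.77 for ADAMTS5. Whether the difference depended on the isolate could not be tested, because a fit with that term leaves no spread between libraries to measure.

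Levels were compared between genes as CPM per kilobase of exon. TIMP1 ranked first of the 10 in all 4 libraries, at 682 and 682 in the control and 1408 and 1052 in the knockdown. MMP1 ranked sixth in the control library of I90-10, at 49, and second in the other 3 libraries, at 223 in the I90-79 control and at 582 and 852 in the knockdown. MMP3 ranked eighth in both control libraries, at 1.91 and 30.2, and seventh and the third in the knockdown, at 60.2 and 283. MMP10 was last in the control, at 0.91 and 3.26, and ninth in the knockdown, at 24.3 and 36.6, while ADAMTS5 went from ninth to last. MMP2 and MMP14 stood close to each other in every library, from 163 to 306 for MMP2 and from 171 to 238 for MMP14, and their order did not hold in the I90-79 knockdown library.

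The make-up of the protease transcripts thus differed between the libraries. Summed over the 5 matrix metalloproteinases, the level was 595 and 649 CPM per kilobase in the control and 1154 and 1504 in the knockdown. MMP1 made up 8.23% and 34.3% of that sum in the control and 50.4% and 56.6% in the knockdown, and MMP2 and MMP14 together made up 91.3% and 60.5% in the control and 42.2% and 22.2% in the knockdown. The sum of the 3 TIMPs was 1196 and 955 in the control and 1743 and 1218 in the knockdown, with the share of TIMP1 at 57% and 71.5% in the control and 80.7% and 86.4% in the knockdown. The ratio of the summed proteases to the summed inhibitors was 0.498 and 0.68 in the control and 0.662 and 1.23 in the knockdown. It was higher in the knockdown of each isolate, but the groups overlapped. The mean ratio was 0.589 in the control and 0.948 in the knockdown. Without MMP1 the direction of this mean turned, to 0.452 and 0.432, but the isolates then went in opposite directions. The turn thus did not hold within each isolate. Without TIMP1 the mean ratio was 1.77 and 6.25. With so few libraries no p was given for the ratio, since an exact two-sided permutation test of 2 against 2 libraries cannot give a p below 0.333. These are RNA levels, and fewer cells of a type cannot be told apart from less RNA per cell in such bulk samples.

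**Figure D4:**
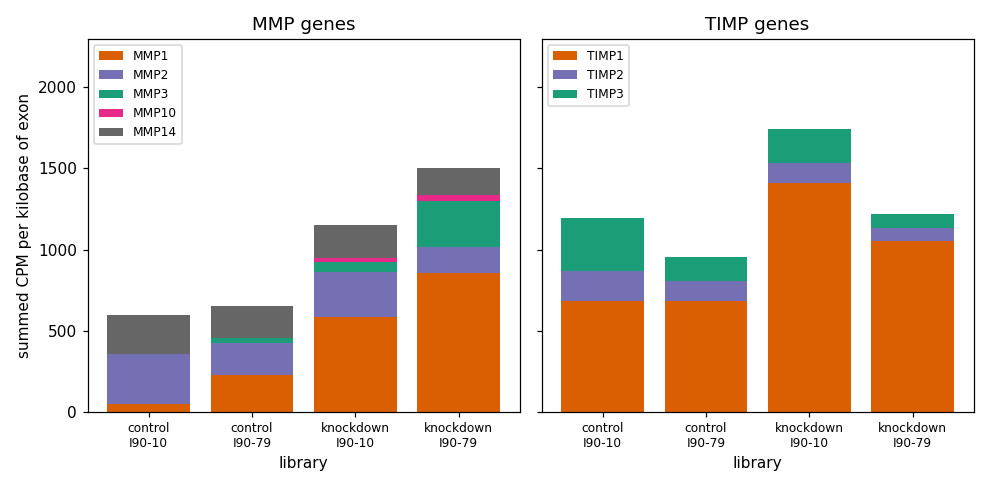
Stacked CPM per kilobase of exon in each of the 4 libraries for the 5 matrix metalloproteinases (left) and the 3 TIMPs (right). The MMP1 segment was 49 and 223 in the control and 582 and 852 in the knockdown, while TIMP1 was the largest segment among the inhibitors in all libraries.

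Among the other genes of the family, 16 of 18 further MMP genes were matched and 8 were tested. The other 8 had at most 11 reads in a library, among them MMP9, the other gelatinase, with 2 reads in the I90-10 control and 0 in the rest, MMP13, a second collagenase, with at most 10, and MMP7, matrilysin, with at most 10. A count of 0 allows up to 3 reads in a library, for counting error only. Of the 8 tested, 1 rose and 2 fell with the block. For this list and those below, 6.68% of all genes tested rose and 7.84% fell with the block. Log2-fold changes and adjusted p of these lists are from the fit without the block unless the block is named. In that fit none of these genes was called. MMP24, a membrane-type enzyme, rose, from 2.55 and 1.63 CPM in the control to 7.72 and 8.1 CPM in the knockdown, with a log2-fold change of 1.93 ± 0.29 (SE) and an adjusted p of 0.0257 without the block. With MMP24OS it shares 18.4% of its exonic bases, and at this low level reads of MMP24OS may not have been told apart from it. MMP19 and MMP11 (stromelysin 3), named here after their values were seen, were the genes that fell. MMP17, also a membrane-type enzyme, had a log2-fold change of −0.48 and MMP23B was at or below 0.647 CPM in every library, and neither was called in either fit. The median log2-fold change of the 8 genes was −0.32, beside −0.01 over all genes tested and 0.47 over the 10 genes.

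Of 17 other ADAMTS genes, 13 were tested, 1 rose and 3 fell with the block. ADAMTS12, a protease of cartilage matrix proteins, had 200 and 207 CPM in the control and 343 and 328 CPM in the knockdown and rose, with a log2-fold change of 0.72 at an adjusted p of 0.0296 without the block. ADAMTS7 fell, from 63.8 and 42.1 to 30.4 and 19.9 CPM. Its log2-fold change was −1.07 at 0.0826 without the block and −1.08 at 2.3e-04 with it. ADAMTS13, which cuts von Willebrand factor, had −1.02 at 0.109 and was not called. The genes that fell beside ADAMTS7 were ADAMTS2, the procollagen N-proteinase, and ADAMTS8, both named after their values were seen. The median of this list was −0.26.

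Of 11 ADAM genes, membrane-anchored sheddases and adhesion proteins, 10 were tested, 1 rose and 2 fell with the block. ADAM15 rose, from 53.2 and 53.5 CPM in the control to 97 and 87.2 CPM in the knockdown, with a log2-fold change of 0.79 at an adjusted p of 0.0241 without the block. ADAM9 fell, from 598 and 471 to 311 and 323 CPM, with −0.75 at 0.052, as did ADAM23, named after its values were seen. ADAM8 had a log2-fold change of 1.25 at 0.167 and was not called. The median of the list was −0.25.

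The 10 genes of the list of other inhibitors were all tested, and 2 rose and 1 fell with the block. The list also held PCOLCE and PCOLCE2, which encode procollagen C-endopeptidase enhancers and not inhibitors. Neither was called in either fit. SERPINB2, the plasminogen activator inhibitor PAI-2, had 3.13 and 13.6 CPM in the control and 128 and 345 CPM in the knockdown. Its log2-fold change of 4.81 ± 0.85 (SE), at an adjusted p of 0.0362 without the block, exceeded those of MMP10 and MMP3, although 19.9% of its exonic bases are shared with SERPINB10, and like MMP3 it was higher in I90-79 in both groups. SERPINE2, the protease inhibitor nexin 1, rose from 53.8 and 156 to 230 and 300 CPM. Its log2-fold change was 1.34 at 0.154 without the block and 1.51 at 0.00198 with it. RECK, the membrane-anchored inhibitor of MMP2, MMP9 and MMP14, fell, from 86.2 and 39.3 to 37.5 and 21.3 CPM. Its log2-fold change was −1.09 at 0.182 without the block and −1.05 at 4.4e-04 with it. RECK thus shared with TIMP3 a lower value in the knockdown of each isolate and a higher one in I90-10 than in I90-79. This was not particular to these genes, since TIMP2, MMP2 and MMP14 and, among the matrix substrates, FN1 and COL5A1 had it too. The median of the list was 0.35.

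Of 15 activators and cofactors, 14 were tested, and 2 rose and 2 fell with the block. The lysosomal cysteine proteases cathepsin B and cathepsin L rose. CTSB had 1713 and 1648 CPM in the control and 3520 and 3053 CPM in the knockdown, with a log2-fold change of 0.97 at an adjusted p of 0.0349 without the block. CTSL1 had 171 and 208 CPM in the control and 527 and 607 CPM in the knockdown, with 1.58 at 0.0131. SDC1, the heparan sulfate proteoglycan syndecan 1, fell, from 39.1 and 44.7 to 22.1 and 21.1 CPM, with −0.96 at 0.0212. The convertase gene PCSK7, named after its values were seen, also fell. The median of the list was −0.02.

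Of 22 matrix substrates, 20 were tested, and 4 rose and 3 fell with the block. LAMC1, the laminin gamma 1 chain of basement membranes, had 697 and 617 CPM in the control and 1596 and 1480 CPM in the knockdown, a log2-fold change of 1.23 at an adjusted p of 0.0175 without the block. COL4A1, a collagen IV chain of basement membranes, rose from 1113 and 1275 to 1992 and 2350 CPM (0.86 at 0.0464). VCAN, versican, a substrate of ADAMTS1 and ADAMTS5, rose from 303 and 283 to 573 and 437 CPM (0.79 at 0.055). The other gene that rose was LUM and those that fell were ELN, FN1 and COL5A1, all 4 named after their values were seen. COL1A1, a chain of the collagen that MMP1 cuts, was not called in either fit. The median of the list was −0.06.

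The 15 AP-1, ETS and RUNX transcription factors, families known to act at MMP promoters, were all tested, and 4 rose and 1 fell with the block. JUNB had 72.8 and 82.7 CPM in the control and 239 and 208 CPM in the knockdown, a log2-fold change of 1.52 at an adjusted p of 0.0109 without the block, and shares 14.3% of its exonic bases with HOOK2. RUNX2 rose from 7.49 and 6.21 to 16.8 and 17.5 CPM (1.33 at 0.02). ETS1 fell, from 202 and 148 to 104 and 104 CPM (−0.75 at 0.061 without the block and −0.73 at 0.00304 with it). FOSB and ETS2, named after their values were seen, were the other genes that rose, while FOS, FOSL1 and JUN were not called in either fit. The median of the list was 0.10.

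Over all 7 lists, 90 of 108 genes were tested. Without the block 0 of the 90 passed the thresholds, beside 0.201% of all genes tested. In that fit 20 were higher and 10 lower in the knockdown at an unadjusted p below 0.05, beside 13.6% and 14.7% of all. With the block 15 rose and 14 fell, beside 6.68% and 7.84% of all. The median log2-fold change was 0.01. Calls among these genes changed when 1 library was left out of the fit without the block. The share of all genes called in those fits is not given here, so such calls cannot be read as particular to these genes.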

How the data were processed

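Poly(A) RNA of 4 IMR90 libraries was sequenced by the authors. Per the labels and the methods, reads were mapped to hg19 with STAR and counted on genes with featureCounts, and the deposited values are raw counts, without normalization. Tool versions and the strand setting are not given in the sources used here.

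All 10 members and the related lists were chosen with earlier results of these data known. From each related list, the 3 genes with the smallest p and any gene called without the block were named. Of the 63677 genes in the files, 55665 had a symbol.

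Counts were tested with edgeR 4.0.16, limma 3.58.1 and R 4.3.3 in the 4 libraries together, after filterByExpr (15398 genes), TMM, the quasi-likelihood test and Benjamini-Hochberg adjustment. Calls required a log2-fold change beyond 0.6 in size and an adjusted p below 0.01. Differences within an isolate used log2 CPM with a prior count of 2. CPM per kilobase used the exon length of each gene in the files. The replicate number names the isolate and so pairs the libraries. The difference between replicates had a correlation of 0.464 between control and knockdown across 15398 genes, which are not independent. Alternatives were the replicate block, DESeq2 1.42.0, RUVs with 1 factor written out from its description, other size factors, other filters, an adjusted p below 0.05 and leaving out each library. DESeq2 with the block was added after seeing the data. The paper used RUVs before DESeq2 and does not name the number of factors. Each fit, except those with a library left out, was run on simulated data and checked for the direction and size of known changes. The simulated isolates differed less than the control libraries did for MMP1, MMP3, MMP10 and ADAMTS5.

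Intervals and floors cover counting error only, since the reads carry no molecular identifiers.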

Additional observations from a re-analysis of the deposited data

Results flagged for a closer look

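ADAMTS1 moved in opposite directions in the isolates, with a log2 difference of knockdown minus control of −0.22 in I90-10 and 0.35 in I90-79. The difference between these values, I90-79 minus I90-10, was 0.57. It was not tested, since each isolate had a single library in each group.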

How the results depend on the processing

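Over 130 comparisons of a member's log2-fold change with an alternative, 95 kept their direction and side of the thresholds, 30 passed them in addition and 5 changed direction. The last were MMP2 (0.15 with RUVs, 0.14 without control replicate 1 and 0.15 without knockdown replicate 2) and ADAMTS1 (−0.04 with RUVs and −0.20 without knockdown replicate 2), and the cause was not tested. With single libraries left out, the log2-fold change ranged from −3.77 to −3.38 for HMGB1, 1.68 to 3.87 for MMP1, 1.91 to 6.49 for MMP3, 3.22 to 5.06 for MMP10, 1.62 to 3.60 for ADAMTS5, 0.62 to 1.05 for TIMP1, −0.93 to −0.24 for TIMP2, −1.50 to −0.03 for TIMP3, −0.34 to −0.03 for MMP14, −0.64 to 0.15 for MMP2 and −0.20 to 0.33 for ADAMTS1. Members called up numbered 0 without the replicate block, 5 with it, 2 with DESeq2, 3 with RUVs, 5 without a filter, 5 with DESeq2 and the block, 1 at an adjusted p below 0.05 and 0 to 4 when a library was left out. Members called down numbered 0, and 1 with the block, without a filter and with DESeq2 and the block. Related genes called up numbered 0, with 15, 13, 18, 18, 15, 10 and 0 to 6 under the same alternatives in the order given, and related genes called down 0, with 14, 6, 6, 16, 13, 2 and 0 to 2. With RUVs and DESeq2, the tools the paper names, MMP3, MMP10 and TIMP1 were the members called up. In that setting MMP1, ADAMTS5 and TIMP3 missed the adjusted p threshold, at 0.0217, 0.0347 and 0.74 by DESeq2. With the pairing of the libraries by isolate MMP1, MMP3, MMP10, ADAMTS5, TIMP1 and TIMP3 gained a call in edgeR, and over all genes the pairing took the calls from 10 up and 21 down to 1028 up and 1207 down. As shares of all genes tested, these were 0.0649% and 0.136% without the pairing and 6.68% and 7.84% with it. At an adjusted p below 0.05 they were 3.73% and 4.34%. For the other settings the share of all genes is not given here, so those counts cannot be read as particular to these genes. Leaving out a library could not be combined with the block, since no residual degrees of freedom remain. Without division by length, MMP1 ranked sixth (6) rather than second (2) in control replicate 2. The mean ratio of summed MMPs to summed TIMPs was 0.589 in the control and 0.948 in the knockdown. It was 0.452 and 0.432 without MMP1, and 1.77 and 6.25 without TIMP1. Without MMP1 the ratio was lower in the knockdown for replicate 1 and higher for replicate 2, so that mean hides opposite directions. Depth limited MMP10 and MMP3 most, at 47 and 115 reads in control replicate 1, where each read moves the level more than for the other members.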

Other observations

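The genes around MMP1 were examined after the values of the members had been seen. Beside MMP1, MMP3 and MMP10, 12 genes were tested within 1000 kb of its start, of which 2 rose in the fit with the isolate as a block, edgeR's quasi-likelihood test. Over all genes tested 6.68% rose and 7.84% fell in that fit. The 2 were YAP1, a transcriptional coactivator of the Hippo pathway, and DCUN1D5. YAP1 had 120 and 143 CPM in the control and 248 and 265 CPM in the knockdown, with a log2-fold change of 0.97 ± 0.10 (SE). DCUN1D5 had 34.6 and 37 CPM in the control and 65.6 and 76.1 CPM in the knockdown, with 0.98 ± 0.10. Between YAP1 and the MMP genes, the apoptosis inhibitors BIRC3 and BIRC2 had log2-fold changes of 0.07 and 0.05, TMEM123 had −0.23 and MMP8 had −0.09, while WTAPP1, which overlaps MMP1 and MMP3 and had at most 0.801 CPM, had 1.36 ± 0.61 and was not called. TRPC6, a calcium channel gene, fell, with −0.99 ± 0.20. Around ADAMTS5, 3 genes were tested and 1 rose, ADAMTS5 itself, while APP had 1156 and 1076 CPM in the control and 1129 and 1004 CPM in the knockdown.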
